A study of Homo sapiens with 2 samples.

Results

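The BCL2 family decides whether the outer membrane of the mitochondrion stays closed or opens during intrinsic apoptosis, and 10 of its genes were followed here: the anti-apoptotic guardians BCL2, BCL2L1 and MCL1, the pore-forming effectors BAX and BAK1, and the BH3-only genes BID, BCL2L11, PMAIP1, BIK and BMF. Members were the genes whose symbol on the array design equalled a listed BCL2 family symbol, which gave 10 of 43317 gene names and 16 of 58201 non-control probes, printed as 25 of 60901 spots. The cells were Ca9-22, a human oral squamous cell carcinoma line, and the question put to the arrays was what ectopic DLEU1, a long noncoding RNA from chromosome 13q14, does to gene expression. Cells received either a control lentiviral vector, which carried no insert, or the same kind of vector carrying full-length DLEU1 cDNA, and both cultures were kept under blasticidin for 2 weeks, at a dose the labels give as 6 mg/ml, a unit that could not be checked here, so the cells compared are selected pools that carry a vector and the resistance gene alike. Each group was a single one-colour Agilent array made from 100 ng of total RNA, so no difference below has a replicate check and none has a p-value.

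In healthy cells the guardian proteins bind and restrain BAX and BAK1. BH3-only proteins, which are induced or activated by stress such as DNA damage, loss of growth factors or loss of attachment, occupy the groove of the guardians or activate the effectors directly. BAX and BAK1 then assemble into pores, cytochrome c leaves the mitochondrion, and APAF1 and caspase 9 start the proteolytic cascade. BMF and BCL2L11 are known in epithelia as mediators of death after detachment from the matrix, and squamous carcinomas often lean on MCL1 and BCL2L1 for survival.

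The probes of the 3 members with the largest differences or the largest disagreement between probes are shown by their last 30 bases, 5′ to 3′, as printed on the array. Capitals mark a polyadenylation signal, AATAAA or ATTAAA, where a probe holds one. Each name is followed by the gene.
A_23_P379649, BMF: agcggaaaaagctgagctcataggtgccca
A_33_P3346801, BMF: acaggaacggggcaggccctaggtgagggt
A_23_P352266, BCL2: aaaaatacggtaaggatactttacatggtt
A_33_P3355185, BCL2: tgtgtgtggagagcgtcaaccgggagatgt
A_24_P122921, BCL2L11: gggtaattgccactttacttgtgcaatact
A_33_P3398526, BCL2L11: tgactctgactctcggactgagaaacgcaa
A_33_P3251932, BCL2L11: tatggtcattggtgATTAAATAAAatgtat
The BMF and BCL2 pairs serve to read the same gene at separate places, and the BCL2L11 set is shown because its probes did not move together. The third BCL2L11 probe holds 2 overlapping polyadenylation signals near its end, and the other 6 printed here hold none. The same transcript entry, NM_207002, stands behind the last pair in the list, and NM_138621 behind the first BCL2L11 probe.

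Across the family, BMF was higher with the DLEU1 vector by a wide margin, BCL2 was lower, and the remaining 8 members stayed within 2-fold. Of the 10 members, all measured above background on both arrays, 1 was at least 2-fold higher, against 9.18% of the 20246 genes detected on both arrays. Likewise 1 was at least 2-fold lower, against 9.78% of all genes, so the counts were at the background share, and the 2 together compare with 19.0% of genes beyond 2-fold either way. In all, 6 members were lower by any amount, where 54.2% of all genes were. Counted by probe, 15 of the 16 were detected on both arrays, 5 higher and 10 lower, against 54.4% of all detected probes on the lower side. Of these, 1 was at least 2-fold higher, where 8.98% of all probes were, and 3 were at least 2-fold lower, where 9.78% were, and the share of all probes beyond 2-fold either way was 18.8%. The median difference over the members was -0.40 on the log2 scale, the median over all genes was -0.07, and the distance from the lowest to the highest member was 6.21. Differences are the level with the DLEU1 vector minus the level with the control vector, where a level is the log2 signal of a probe less the 75th percentile of its array.

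**Figure D1:**
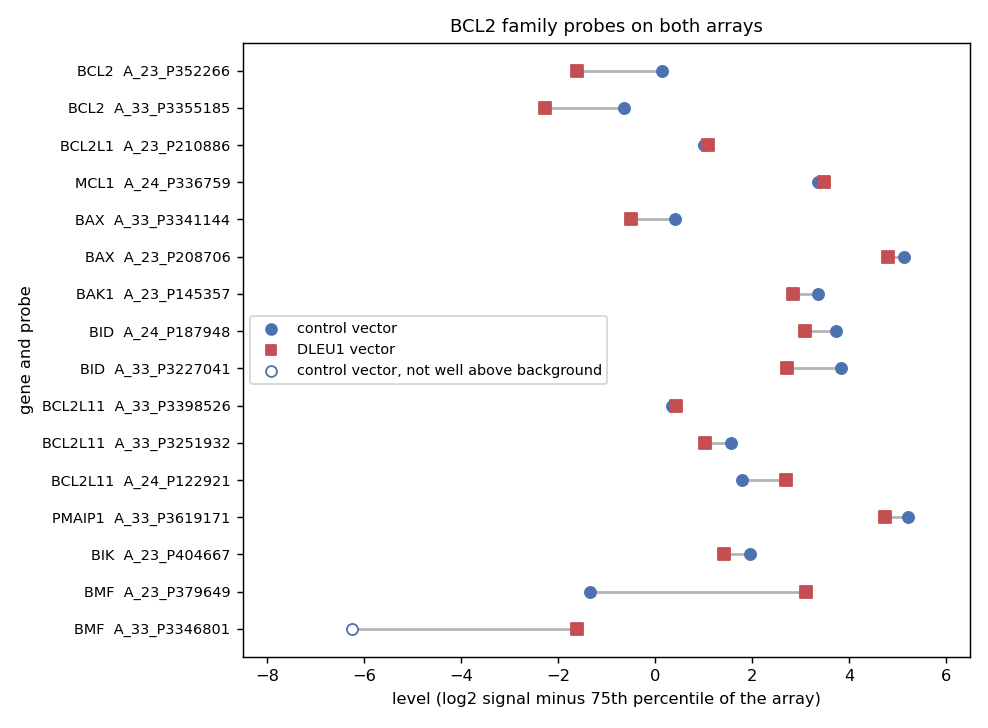
Level of each of the 16 member probes, as log2 signal minus the 75th percentile of the array, with the control vector (circles) and the DLEU1 vector (squares). The horizontal distance between the marks is the difference, and it is largest for both BMF probes, 1 of which was not well above background with the control vector (open circle).

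The precision of a single difference can be judged only from within the arrays. Repeated spots of 282 probes gave an SD of 0.08 for the log2 difference of a spot, which covers printing and scanning alone. Probes of the same gene differed from each other with an SD of 0.47 over 4674 genes. The scanner software's own error, which assumes a multiplicative error of 10%, came to between 0.20 and 0.23 for a difference of a member. None of these holds the spread between cultures, so each difference below describes these cultures only.

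BCL2, the founding guardian of the family, was lower with the DLEU1 vector on both of its probes. The probe for the alpha transcript (A_23_P352266, NM_000633, chr18:60790723-60790782 on hg19, minus strand) gave a signal of 266 on the control array and 77.5 on the DLEU1 array. Its level went from 0.14 to -1.61, a difference of -1.74 or 3.35-fold. The probe named for the beta transcript (A_33_P3355185, NM_000657, chr18:60985401-60985460, minus strand) gave 156 and 48.8, a difference of -1.64 or 3.11-fold. The probes lie far apart in the gene and their differences were 0.11 apart, close to the spot SD. Only 2.68% of all genes had a lower difference than BCL2. Since these are bulk cultures, fewer cells expressing a gene and less RNA per cell cannot be told apart, here or for any gene below.

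The other guardians did not follow BCL2. BCL2L1, which encodes the long survival form BCL-XL and the short pro-death form, gave 488 on the control array and 504 on the DLEU1 array on its only probe (A_23_P210886, NM_138578, chr20:30253324-30253383, minus strand), a difference of 0.09. MCL1, a short-lived guardian that binds BAK1 and PMAIP1, gave 2473 and 2629 (A_24_P336759, NM_021960, chr1:150547622-150547681, minus strand), a difference of 0.13 or 1.09-fold. Both differences were within 2 spot SDs and below the software's error of a difference, so neither array level stood clear of the other. BCL2 thus fell behind BCL2L1 by 1.83 and behind MCL1 by 1.87 on the log2 scale, gaps that no constant scaling factor alters. The sign of BCL2L1 and of MCL1 on their own was scale dependent: BCL2L1 was negative under 3 other scalings, among them both spike-in scalings, where it reached -0.42, and MCL1 was negative under those 2 spike-in scalings, where it reached -0.32. Relative to the median over all genes both stayed above 0 under all 8 scalings, BCL2L1 by between 0.14 and 0.16 and MCL1 by between 0.20 and 0.31. A constant scaling cannot change this relative value, so only quantile normalization, loess and the spike-in trend could have done so. With the median of the 100 nearest spots taken off, BCL2L1 was at 0.03, below the 0.05 of the median over all genes.

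Both effectors were moderately lower. BAX, which moves from the cytosol into the outer membrane when activated, is the member with the most measurements, because its probe A_23_P208706 (NM_138764, the sigma transcript, chr19:49464904-49464963, plus strand) is printed 10 times. Those spots ranged from 7945 to 8826 on the control array and from 5946 to 6998 on the DLEU1 array. The ranges did not overlap, and the 10 spot differences ran from -0.43 to -0.24 around -0.31, with an SD of 0.06. This 1.24-fold difference is therefore well above the technical spread of the spots, while its size is small beside the 0.47 that separates probes of the same gene. The second BAX probe (A_33_P3341144, NM_004324, the beta transcript, chr19:49464454-49464513, plus strand) went from 323 to 167, a difference of -0.92 or 1.89-fold. The BAX probes thus pointed the same way but lay 0.61 apart. The first matches 4 RefSeq entries and the second 3, so neither reads 1 variant alone, and the part of transcript variants was not tested. BAK1, the effector that resides in the mitochondrial membrane, gave 2495 and 1684 (A_23_P145357, NM_001188, chr6:33540585-33540644, minus strand), a difference of -0.53 or 1.44-fold.

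Of the 5 BH3-only members, BMF and BCL2L11 were higher and BID, PMAIP1 and BIK were lower. BMF, which is held on the actin motor complexes of the cell until stress releases it, had the largest difference of the family. Its probe A_23_P379649 (NM_001003940, chr15:40380450-40380509, minus strand) gave 95.1 on the control array and 2045 on the DLEU1 array. The level went from -1.35 to 3.12, a difference of 4.46 or 22.1-fold, rank 32 from the highest of the 20246 genes. The second BMF probe (A_33_P3346801, chr15:40383984-40384043, minus strand) was not well above background with the control vector, at a signal of 3.19, and gave 76.8 with the DLEU1 vector. Against the lowest signal among probes well above background on the control array, the difference of that probe was at least 5.55-fold, a bound of 2.47 on the log2 scale. Both BMF probes were therefore higher, with the dim control signal limiting what the second can show.

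BCL2L11, which encodes BIM, was the other BH3-only member on the higher side, but its 3 probes did not move as a group. The probe named for transcript variant 1 (A_24_P122921, chr2:111925892-111925951, plus strand) went from 836 to 1526, a difference of 0.91 or 1.87-fold, and 89.4% of all genes had a lower difference. A probe of the variant NM_207002 (A_33_P3398526, chr2:111878705-111878764, plus strand) gave 307 and 319, a difference of 0.09. The other probe of that variant (A_33_P3251932, chr2:111886352-111886411, plus strand), the one that ends in polyadenylation signals, went from 715 to 480, a difference of -0.54 or 1.45-fold. The probes of BCL2L11 were 1.44 apart, with an SD of 0.72 against the 0.47 between probes over all genes, so the direction of this gene depended on the probe read. The part of transcript variants in this was not tested, since the first probe matches 4 RefSeq entries and the other probes share an entry but not a sign.

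The remaining BH3-only members were lower by less than 2-fold. BID, whose cleaved form tBID links death receptors to mitochondria, gave 3213 and 2005 on A_24_P187948 (NM_197966, chr22:18218182-18218241, minus strand), a difference of -0.64 or 1.56-fold. Its second probe A_33_P3227041 (chr22:18218265-18218324, minus strand) went from 3422 to 1553, a difference of -1.10 or 2.15-fold, but its spot lies in the margin of a strip where many spots were lower on the DLEU1 array. The 100 nearest spots of that probe had a median difference of -0.51, and against them the probe stood at -0.59, close to the -0.56 of the other BID probe against its own neighbours. PMAIP1, which encodes NOXA, the BH3-only protein that binds MCL1, gave 9039 and 6262 (A_33_P3619171, NM_021127, chr18:57570691-57570750, plus strand), a difference of -0.49 or 1.41-fold. BIK, a BH3-only protein of the endoplasmic reticulum, gave 944 and 631 (A_23_P404667, NM_001197, chr22:43525495-43525554, plus strand), a difference of -0.54 or 1.46-fold. The BIK spot too lies in that margin, its neighbours had a median of -0.48, and against them it stood at -0.06, so the BIK difference was not larger than that of the spots around it.

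**Figure D2:**
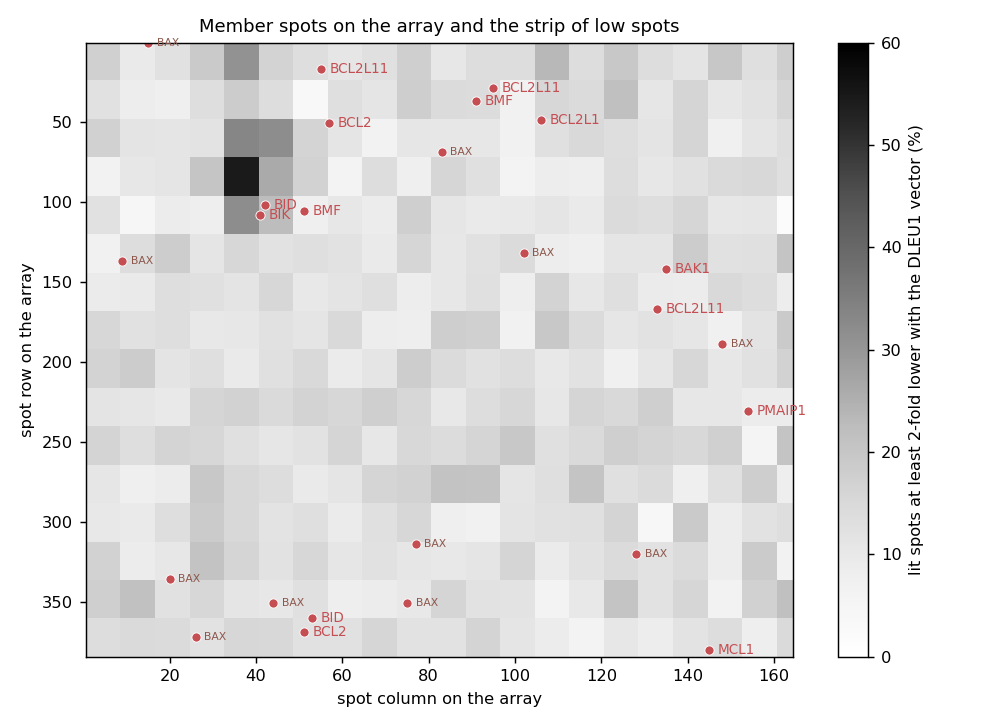
Position of every member spot on the array (spot column against spot row, red points) over the percent of lit spots in each tile that were at least 2-fold lower with the DLEU1 vector (grey). The dark tiles near column 36 are that strip of low spots, and the BIK spot and a BID spot lie beside it.

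The strip of low spots, rows 73 to 120 and columns 33 to 40, held 181 lit spots, of which 44.2% were at least 2-fold lower with the DLEU1 vector, against 18.9% of 880 in its margin and 12.7% of 29216 elsewhere. None of the members lay within the strip, and the neighbours of members outside the margin had medians between -0.27 and 0.06. BMF's probe in row 106 lies outside the margin, and against its neighbours its difference was 4.64. With the strip and its margin left out, 9 members remained, BIK having no other probe, and their median was -0.32.

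The members therefore did not shift as a block: BMF and BCL2 lay on opposite sides of all others, with a gap of 6.21 between them, or 74.0-fold. BMF also stood apart from BCL2L11, the BH3-only member nearest to it, by 3.56. Among pairs that bind each other as proteins, BCL2 fell behind BAX by 1.43, MCL1 stood above PMAIP1 by 0.62 and above BAK1 by 0.66, and BCL2L1 stood above BAX by 0.40. Of the BH3-only genes on the higher side, BMF stood above MCL1 by 4.34 and BCL2L11 above BCL2 by 2.65. Gaps with BAX or BCL2L11 depend on the probe read: the second BAX probe was at -0.92, and the BCL2L11 probes ran from -0.54 to 0.91. The median of the anti-apoptotic members exceeded that of the pro-apoptotic members by 0.58, a value set by 3 and 7 genes whose ranges overlapped. That gap was 0.22 with the median of the 100 nearest spots taken off and 0.38 after quantile normalization.

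**Figure D3:**
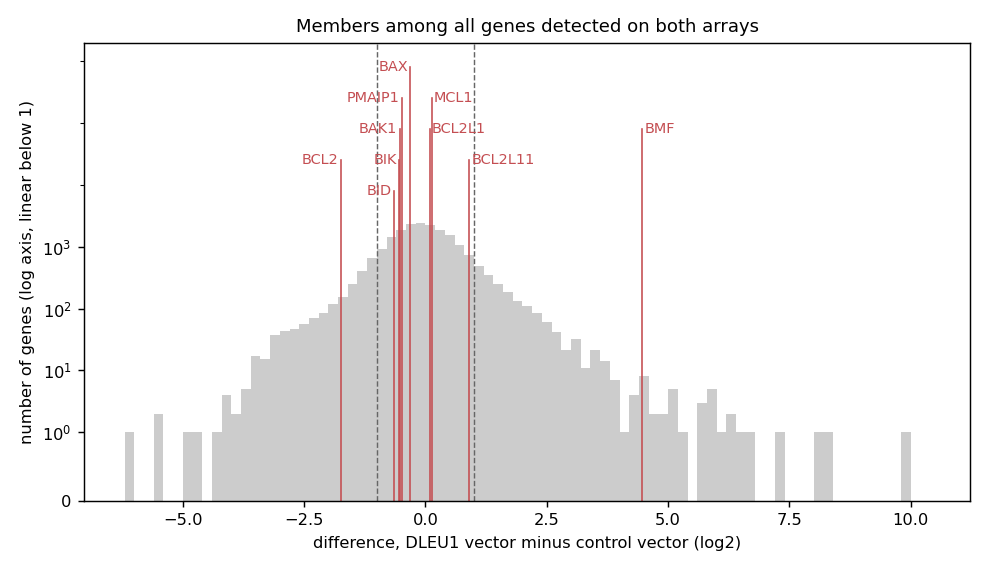
Number of genes by log2 difference (DLEU1 vector minus control vector) for all 20246 genes detected on both arrays, with each member marked by a red line and 2-fold by dashed lines. BMF at 4.46 lies in the upper tail, BCL2 at -1.74 in the lower part, and the other 8 between the dashed lines.

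Promoters of the members were read from RefSeq (GRCh38.p14), the 250 bases before each start; 8 of the 10 members matched, with 14 promoters, and MCL1 and BIK did not. The promoters of the highest, the lowest and the most probe-dependent member are printed on the strand of the gene, with capitals for the GC box (GGGCGG, or CCGCCC on the other strand) and the forkhead motif (GTAAACA, or TGTTTAC).
BMF, chr15:40108880-40109129: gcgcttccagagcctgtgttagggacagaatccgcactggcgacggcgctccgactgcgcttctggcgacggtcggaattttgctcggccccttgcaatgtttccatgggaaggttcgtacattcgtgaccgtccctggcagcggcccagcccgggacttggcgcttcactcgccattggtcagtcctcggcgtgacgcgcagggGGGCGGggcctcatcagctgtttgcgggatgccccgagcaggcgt
BCL2, chr18:63319770-63320019: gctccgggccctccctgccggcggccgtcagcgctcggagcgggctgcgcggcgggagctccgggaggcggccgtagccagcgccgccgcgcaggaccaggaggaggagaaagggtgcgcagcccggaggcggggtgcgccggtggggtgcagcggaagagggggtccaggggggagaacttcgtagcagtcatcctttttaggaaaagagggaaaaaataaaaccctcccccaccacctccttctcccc
BCL2L11, chr2:111120664-111120913: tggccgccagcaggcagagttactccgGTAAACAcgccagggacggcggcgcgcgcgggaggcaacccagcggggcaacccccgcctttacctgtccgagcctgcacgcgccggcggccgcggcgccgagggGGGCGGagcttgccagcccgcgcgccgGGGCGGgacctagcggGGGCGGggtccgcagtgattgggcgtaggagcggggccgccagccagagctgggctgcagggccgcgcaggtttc
The BMF promoter was 65.2% G or C with 26 CG pairs and held 1 GC box. A second BMF promoter, chr15:40106967-40107216, was 48.8% G or C, had 0 CG pairs and matched none of the motifs searched. The BCL2 promoter was 70.0% G or C with 24 CG pairs and matched none of them either. The BCL2L11 promoter was 76.8% G or C with 34 CG pairs, 3 GC boxes and 1 forkhead motif.

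In all, 7 motifs were searched on both strands of 35116 promoters of that length. The median content of G or C was 58.0% over all promoters and 67.0% over the 14 member promoters. Windows of BID among the 14 overlap, so the 14 are not independent and a shared site counts more than once. The GC box occurred in 42.6% of all promoters and in 9 of the 14, from 6 members. The CCAAT box (CCAAT) occurred in 32.0% and in 4 of the 14, from 4 members. The TATA box (TATAAA) occurred in 3763 promoters and in 1 of the 14, from BCL2L1. The E-box (CACGTG) occurred in 6.34% of all promoters and in 3 of the 14, from BAX and BID, and the BID windows that hold it share the same site. The forkhead motif occurred in 2.98% and in 1 of the 14, from BCL2L11. Neither the AP-1 motif (TGANTCA, 6.57% of all promoters) nor the interferon-response motif (3.02%) was found in these windows of the members. At least 1 promoter of each of BAK1, BAX, BCL2L11, BID, BMF and PMAIP1 thus held a GC box, and these 6 genes include both lower and higher members.

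A further 11 genes of the family were read from a list. Of these, 9 were detected on both arrays, 2 higher and 7 lower, with a median of -0.16, beside 54.2% lower and a median of -0.07 over all genes. BBC3, which encodes the BH3-only protein PUMA, went from a level of 1.17 to 2.68, a difference of 1.51 or 2.86-fold, the highest of this list. BCL2L12, a divergent relative, was lowest at -1.51 or 2.85-fold, and its other probe gave -1.57. HRK, a BH3-only gene best known in neurons, gave -0.16 on the probe used and 1.14 on the other. BCL2L10 and BCL2L14 were not well above background on either array. BAD, a BH3-only gene controlled by phosphorylation, was at -0.22 with -0.57 on its other probe. On the probes used, the BH3-only genes above 0 were thus BMF, BCL2L11 and BBC3, and those below 0 were BID, PMAIP1, BIK, BAD and HRK.

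Among genes that act after the BCL2 family, 9 of 10 for mitochondrial release and the apoptosome were lower and 1 higher, with a median of -0.59, beside 54.2% lower and a median of -0.07 over all genes. CYCS, which encodes cytochrome c, was lowest at -1.29 or 2.45-fold, although its probes ran from -1.34 to 0.13. DIABLO, which antagonises the inhibitors of apoptosis, was highest at 0.43, with -0.33 on its other probe. Of 10 caspase genes, 9 were detected, 3 higher and 6 lower, near the share over all genes, and none of these reached 2-fold, where 19.0% of all genes did. CASP2 was lowest at -0.75, the median was -0.24, and CASP14 was not well above background on either array. The detected caspase transcripts thus stayed within 2-fold, as did every member other than BMF and BCL2.

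Unlike the caspases, the inhibitors of apoptosis and the death receptors held genes beyond 2-fold, where 19.0% of all genes were. BIRC5, survivin, a gene of dividing cells, was 6.77-fold lower, at -2.76, and BIRC3, an NF-κB target, was 3.06-fold lower, at -1.61. XIAP, the direct caspase inhibitor, was highest of that list at 0.88. BIRC7 was well above background with the control vector only, which bounds its difference at -1.18 or lower. Of the 6 inhibitors detected on both arrays, 2 were higher and 4 lower, with a median of -0.07, where 54.2% of all genes were lower. At least 2-fold higher were 0 of the 6 and at least 2-fold lower 2, beside 9.18% and 9.78% of all genes.

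Among 9 detected death receptor genes, 4 were higher and 5 lower, with a median of -0.49. TNFSF10, the death ligand TRAIL, went from a level of 2.83 to 6.52, a difference of 3.69 or 12.9-fold, with 3.66 on its other probe. TNFRSF10A, a receptor for that ligand, was lower by -1.81 or 3.51-fold. The ligand and this receptor thus lay at opposite ends of the list. FASLG was not well above background on either array.

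Known regulators of the members were split evenly, 7 of 14 higher and 7 lower, with a median of -0.04. FOXO1, of the forkhead class known to activate BCL2L11 and BBC3, was 2.93-fold higher, at 1.55. TP73 was higher by 1.09, and PIM1, a survival kinase, by 1.05. E2F1, a cell cycle factor, was lowest at -3.56 or 11.8-fold and FBXW7, which marks MCL1 protein for destruction, was at -1.80 or 3.47-fold, and the spots of both lie in the margin of the strip of low spots.

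**Figure D4:**
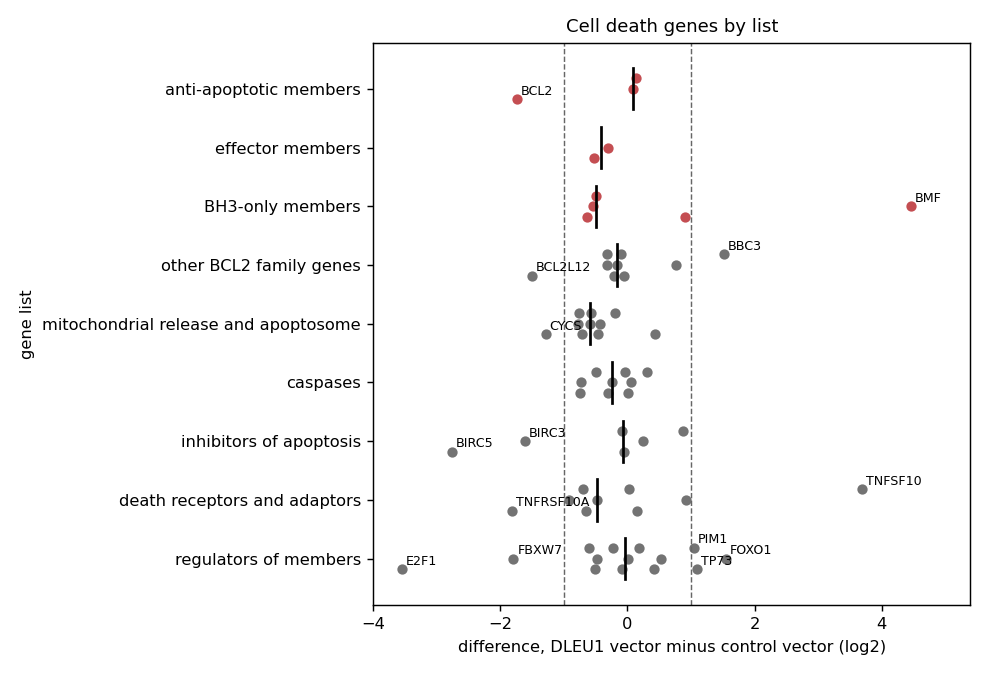
Log2 difference (DLEU1 vector minus control vector) of each gene detected on both arrays, for the members and 6 lists of cell death genes and regulators, with members in red, other genes in grey, list medians as black bars and 2-fold as dashed lines. Among the genes plotted, BMF and TNFSF10 lie farthest to the right and E2F1 and BIRC5 farthest to the left.

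On the arrays as a whole, 47.6% of probes on the control array and 48.1% on the DLEU1 array were well above background, and no member spot was saturated or an outlier. DLEU1 was higher with its vector, from a level of 3.17 to 5.91 on its brightest probe, a difference of 2.74 or 6.67-fold, and its other 2 detected probes gave 0.85 and 0.54. All 8 squamous epithelial markers were detected on both arrays, 7 of them higher and 5 at least 2-fold higher with the DLEU1 vector. Of all 20246 genes detected on both arrays, 9278 were higher and 9.18% at least 2-fold higher. EPCAM was the lower marker, at -0.78, and CDH1, at 1.04, was read from a spot within the strip of low spots. The signal of the 8 markers, summed on each array over the probes detected there, went from 231000 to 470400. Of the markers of other cell types, the defining CD3E, MS4A1, PECAM1, KDR, COL1A2, COL3A1 and DCN were not well above background on either array. Both arrays detected 2 of 6 fibroblast markers (summed signal 358 and 5268, with COL1A1 at 3.99, and LUM, detected on the DLEU1 array only and at least 2.47-fold higher, in the second sum), 4 of 6 lymphocyte markers (2071 and 2307), 2 of 4 myeloid markers (1081 and 3628, with CSF1R at 1.86), the other 2 having no probe of that name, and 2 of 4 endothelial markers (137 and 676, with VWF at 3.70 on the probe used and -0.07 on its other probe). The part of these markers in the BMF, BCL2 and other differences was not tested.

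Under other processing the outline of the family held for the members at its ends. BCL2 was at least 2-fold lower under all 17 other settings that measured it, from -2.30 to -1.20, and BMF at least 2-fold higher under all 17, from 3.76 to 4.64. BMF had 1 probe detected on both arrays, so the settings that only choose or average probes could not move it. BCL2L11 ranged from -0.54 to 1.02 and turned negative when its first probe in the file was taken. BAX ranged from -0.68 to -0.06, BAK1 from -0.98 to -0.37, PMAIP1 from -0.86 to -0.24, BID from -1.10 to -0.46 and BIK from -1.04 to -0.06. Each of these 5 was negative under every setting that measured it. BCL2 and BMF drop out where each array must reach a signal of 100, since the dimmer array lay under it for each.

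**Figure D5:**
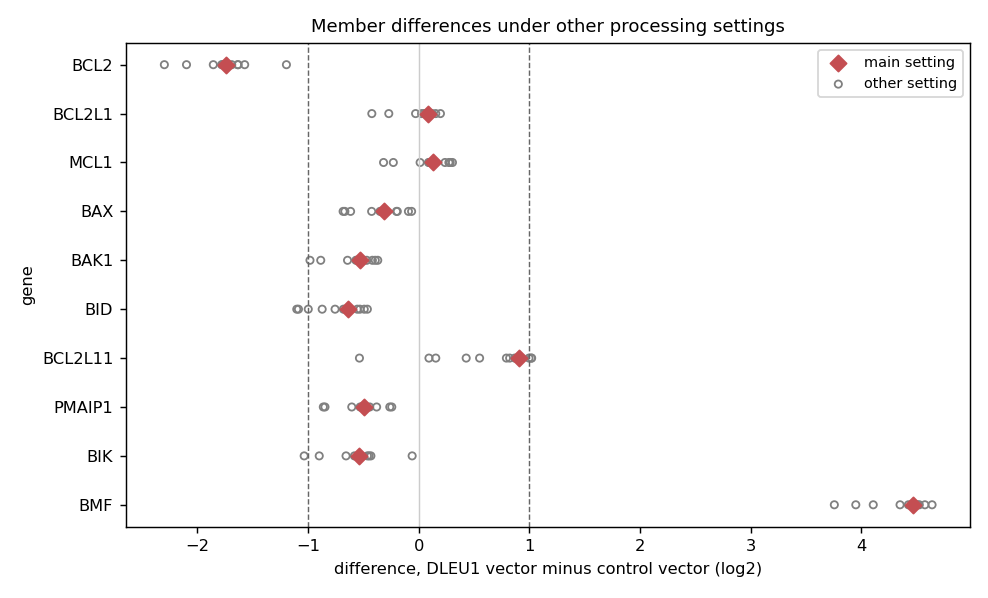
Log2 difference (DLEU1 vector minus control vector) of each member under the main setting (red diamonds) and the other settings (open circles), with 2-fold as dashed lines. BCL2 and BMF stay beyond 2-fold throughout, and BCL2L1, MCL1 and BCL2L11 cross 0.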

How the data were processed

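RNA of Ca9-22 cells with a control vector or a DLEU1 vector was measured on 1 array each. The authors scanned one-colour arrays and read them with Agilent Feature Extraction (10.7.3.1 per the file headers), which gives background-subtracted, detrended spot intensity, and the deposited intensity values were not scaled between arrays. The series values differed from them by at most 0.497%. Probe positions are on hg19.

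From the deposited intensity, log2 values were computed, spots of a probe averaged (84 and 103 outlier spots set aside) and the 75th percentile of each array taken off. A probe counted as detected where over 50% of its spots were well above background. A gene was read from its brightest probe among those detected on the control and the DLEU1 array, and 2-fold marked a call. For a probe detected on 1 array, the lowest signal among detected probes gave a bound. The strip of low spots was set by tiles of 24 rows and 8 columns. Tiles were taken where the median difference lay over 4 robust SDs, in either direction, from the median over tiles. All members and probes were named, and of the other cell death and regulator lists genes beyond 2-fold, on 1 array only, or at the ends; BAD and some second probes were added after their values were seen, and 1 gene at the end of a list is not reported here. Cell type marker lists were a check, given by counts and sums with a few genes named. Members, lists and motifs were chosen with earlier results of these data known. With 1 array a group there was no test, and the number of arrays limits precision. The steps were tested on simulated data. Alternatives were other scalings, background (limma 3.58.1, R 4.3.3), filters, probe rules and array position. Python 3.11.15, numpy 2.4.6 and pandas 2.3.3 were used.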

Additional observations from a re-analysis of the deposited data

How the results depend on the processing

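With 20 alternatives, 2 of them chosen after seeing the data (leaving out the margin, and the probe with the smallest difference), no member called 2-fold changed sign, and 108 of 177 member values moved by less than the spot SD. Settings that only choose or average probes could not move a member with 1 detected probe, so the 108 include values that could not change. The median difference of the members (-0.40) was -0.52 when arrays were scaled to the median, -0.29 when the 75th percentile came from detected probes, -0.18 after quantile normalization, -0.15 with loess, -0.76 with spike-in probes set equal, -0.77 with the spike-in trend, -0.51 with the mean of probes or the first probe, -0.13 with the 100 nearest spots taken off and -0.32 without the strip and margin. Scaling moved the median over all genes itself, from -0.07 to -0.43 and -0.56 with the spike-in scalings, and relative to it the members' median lay between -0.33 and -0.15 under the 8 scalings. Scalings by a constant cannot change that relative value, so only quantile normalization, loess and the spike-in trend could have done so. Members at least 2-fold higher (1) became 2 with the 75th percentile over detected probes, loess or a 1.5-fold threshold, and 0 where signals under 100 were dropped. Members at least 2-fold lower (1) became 3 with the spike-in trend, 2 with the first probe or a 1.5-fold threshold, and 0 where signals under 100 were dropped. The spread (6.21) was 4.95 with normexp, 1.55 with signals under 100 dropped, where BCL2 and BMF drop out, and 6.10 with the smallest-difference probe. The anti-apoptotic minus pro-apoptotic median (0.58) was 0.38 with quantile normalization, 0.40 with loess, 0.44 with the spike-in trend, 0.22 with the 100 nearest spots taken off and 0.49 without the strip and margin. Beyond the removal of members or spots, the cause was not tested. No paired analysis was possible because the groups share fewer than 2 replicate numbers, and with 1 array a group none could be left out. BCL2 with the DLEU1 vector and BMF with the control vector had signals under 100, and normexp moved these differences to -1.20 and 3.76.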
